A study of Homo sapiens with 14 samples.

Results

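The genes described are 10 genes of the endoplasmic reticulum (ER) folding machinery and of the XBP1 branch of the unfolded protein response, HSPA5, HSP90B1, CALR, HYOU1, MANF, HERPUD1, XBP1, SDF2L1, DNAJB9 and PDIA4. They are members by their names, a choice made with earlier results of these data known, and all 10 were found among the 27819 genes that the 4 count tables of the series share. Each was followed in every library of CWR22RV1, a human prostate cancer cell line, so the values come from a single line.

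The cells were kept for 72 h in DMSO alone, the vehicle control (3 libraries), or in 1 of 4 inhibitors of glycan synthesis. These were 30 μM Fucotrim I (3 libraries) and 60 μM Fucotrim II (2 libraries), which act on the synthesis of GDP-fucose, 100 μM SGN-2FF (3 libraries), a fluorinated fucose analogue, and 2 μM P-SiaFNEtoc (3 libraries), an inhibitor of sialyltransferases. The study names 3 biological repeats for each treatment, and of Fucotrim II those 2 libraries were used. The doses differ, so a difference between inhibitors is a difference between compound and dose together. Libraries held 15398797 to 17689717 counts on genes in DMSO, 12553094 to 14947100 with Fucotrim I, 18183854 and 19099194 with Fucotrim II, 12950695 to 16579157 with SGN-2FF and 15424545 to 19981453 with P-SiaFNEtoc. The least abundant of the 10 genes, DNAJB9, had 217 to 607 counts per library, and the others had at least 832. Libraries of a group were compared over all genes by chi-square per degree of freedom, where 1 is sampling noise. This was 1.62 to 4.68 within DMSO, SGN-2FF and P-SiaFNEtoc. The first Fucotrim I library stood apart from the other 2 (11.9 and 19.7, beside 6.13 between those), and the 2 Fucotrim II libraries differed most (26.5).

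Secreted and membrane proteins are folded in the ER by Hsp70 and Hsp90 family chaperones, by lectin chaperones that bind N-glycans, and by protein disulfide isomerases. When unfolded proteins build up, the sensors ATF6, IRE1 (encoded by ERN1) and PERK (encoded by EIF2AK3) are activated. IRE1 splices XBP1 mRNA so that it encodes an active transcription factor, and XBP1 and ATF6 together raise the genes of ER chaperones and of ER-associated degradation. Prostate luminal cells secrete large amounts of glycoprotein and rely on this machinery.

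The identity of the cells was checked against markers. All 8 luminal prostate markers were detected in each library, with a summed level between 2139.8 and 3109 CPM (counts scaled to a library of 1e+06, after TMM), and the keratin KRT8 was the most abundant of them throughout. The summed level of 10 markers of basal, blood, stromal and endothelial cells was 22.9 to 35.7 CPM, most of it from COL1A1. The T cell marker CD3E had 0 counts in all 14 libraries, the endothelial markers PECAM1 and CDH5 were at 0 in 12 each, and the basal keratins KRT5 and KRT14 were at 0 in 11 and 9. The other markers were detected more widely. COL1A1, CD68 and COL3A1 had counts in every library, at up to 29.2, 8.03 and 1.29 CPM. PTPRC was at 0 in 3 libraries and TP63 in 6, with at most 3 and 2 counts.

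The ER stress element (ERSE) is bound by ATF6 and XBP1 together with NF-Y. ERSE-II and the unfolded protein response element (UPRE) are shorter elements of the same pathway. The promoters in which their letters were found are shown here because these are the elements known for this pathway, and no single element was found in more than 4 of the 10 genes. The 300 bases from 250 before to 50 after each start site were taken from RefSeq (GRCh38.p14), with 12 windows for the 10 genes, and searched on both strands for ERSE (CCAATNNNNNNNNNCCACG), ERSE-II (ATTGG and CCACG with 1 base between them) and the core of the UPRE (TGACGTG). Capitals mark the matches, each stretch is written 5′ to 3′ on the strand of its gene, and a match on the opposite strand reads as the reverse complement.
HSPA5 (chr9:125241386-125241414, minus strand): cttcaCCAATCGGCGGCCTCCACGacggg
HSP90B1 (chr12:103930211-103930344, plus strand): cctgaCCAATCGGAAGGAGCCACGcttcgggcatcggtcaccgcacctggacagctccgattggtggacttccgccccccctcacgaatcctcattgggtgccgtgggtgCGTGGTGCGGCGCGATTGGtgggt
CALR (chr19:12938379-12938407, plus strand): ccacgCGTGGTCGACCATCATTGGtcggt
XBP1 (chr22:28800598-28800626, minus strand): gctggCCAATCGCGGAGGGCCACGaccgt
HYOU1 (chr11:119057269-119057398, minus strand): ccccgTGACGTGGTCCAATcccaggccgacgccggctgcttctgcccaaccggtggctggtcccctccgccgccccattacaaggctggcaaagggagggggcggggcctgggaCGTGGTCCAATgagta
HERPUD1 (chr16:56932020-56932040, plus strand): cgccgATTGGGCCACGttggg
SDF2L1 (chr22:21642109-21642129, plus strand): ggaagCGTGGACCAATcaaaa

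ERSE letters were found for HSPA5, CALR and XBP1, once each, and for HSP90B1 at 2 places. That makes 4 of the 10 genes and 4 of their 12 windows. Among all 35116 promoters of the same length in RefSeq, these included, 27 held them (0.0769%). ERSE-II letters were found for HERPUD1 and SDF2L1 and at 2 places for HYOU1. That makes 3 of the 10 genes and 3 of the 12 windows, and 19 of the 35116 promoters held them (0.0541%). The elements were chosen as those known for this pathway. Finding them in genes of the pathway is a description and no test of enrichment. The UPRE core was found for HYOU1 alone among them, where it overlaps the farther ERSE-II match, and it occurs in 692 promoters (1.97%). The matches lay between -225 (CALR) and -34 (XBP1) from the start site. For MANF, DNAJB9 and PDIA4 none of these letters were in the windows searched.

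**Figure D1:**
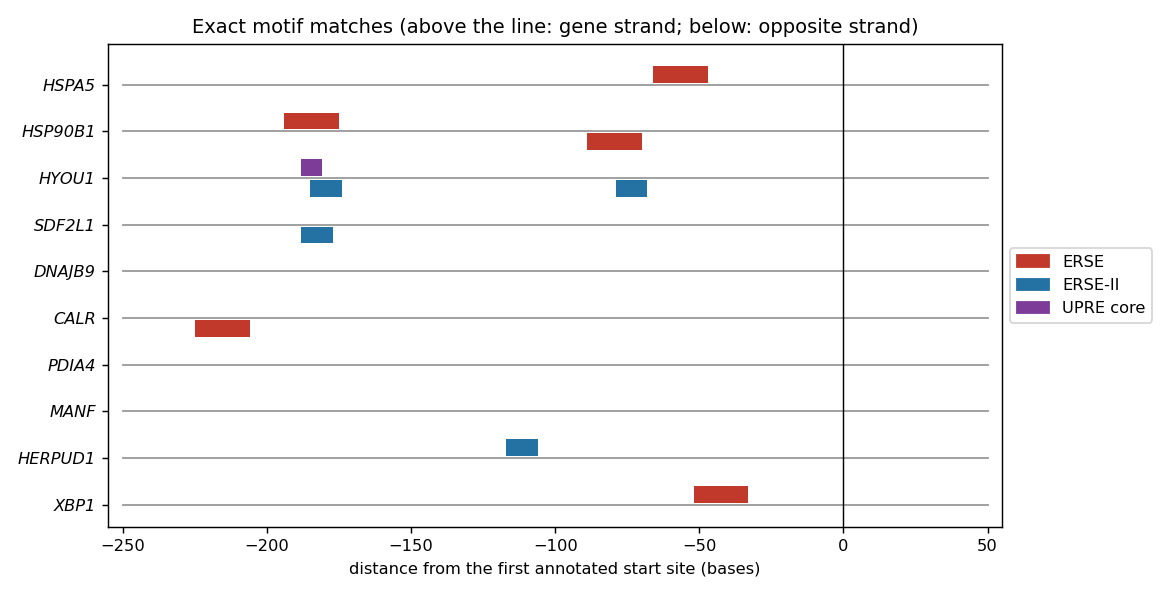
Positions of the exact motif matches in the promoter of each gene, as the distance from the start site in bases (x axis); boxes above a line are on the strand of the gene and boxes below it on the opposite strand, and red is ERSE, blue ERSE-II and purple the UPRE core. 7 of the 10 genes hold a match, and HSP90B1 and HYOU1 hold matches at 2 separate places.

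In DMSO the 10 genes together took 0.934% to 0.964% of all counts on genes. Levels were compared between genes per kilobase of the canonical transcript in GENCODE, and on this scale CALR was highest (1160 ± 27.5 CPM per kilobase, SD, n = 3), followed by HSP90B1 (1041 ± 35.2) and HSPA5 (426 ± 7.81). MANF (355 ± 6.64) and PDIA4 (334 ± 3.74) came next, and their libraries did not overlap. XBP1 (138 ± 5.61), HYOU1 (131 ± 2.19) and SDF2L1 (125 ± 15.4) did not differ beyond the spread of their libraries, and HERPUD1 (74.0 ± 1.10) and DNAJB9 (12.58 ± 0.690) were lowest. With Fucotrim I the share of counts taken by the 10 genes was 0.370%, 0.420% and 0.403% in the 3 libraries, below every other library. It was 0.918% and 0.938% with Fucotrim II, 0.878% to 0.900% with SGN-2FF and 0.935% to 0.974% with P-SiaFNEtoc.

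**Figure D2:**
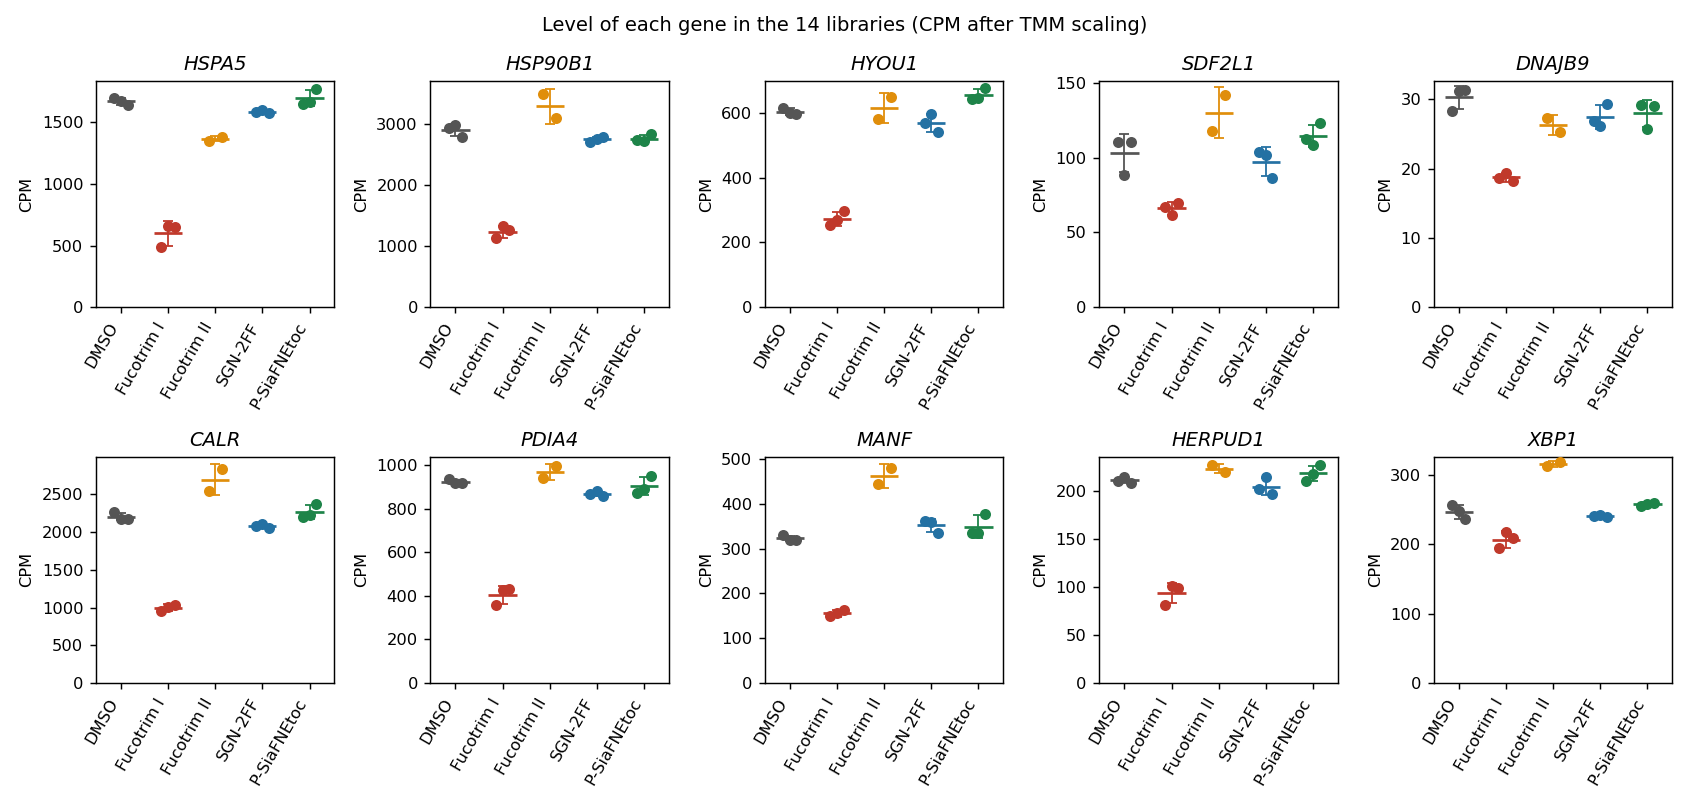
CPM of each of the 10 genes (y axis, from 0) in the 14 libraries, grouped by treatment (x axis); points are libraries, horizontal lines are group means and error bars are 1 SD. The 3 Fucotrim I libraries are below the 3 DMSO libraries in all 10 panels, and the gap is narrowest for XBP1.

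To ask how each inhibitor moved this machinery, each was compared with DMSO in a fit over all genes by the quasi-likelihood test of edgeR, adjusted by the Benjamini-Hochberg method, and a gene was called at an adjusted p-value under 0.05. With Fucotrim I all 10 genes fell. Their median log2 fold change (log2FC) was -1.14, beside 0.00 over the 14188 genes tested, of which 22.1% were called lower and 21.6% higher. In all 10 the Fucotrim I libraries were below every DMSO library, which held in this direction for 27.4% of genes. RNA came from whole cultures, so fewer cells with a transcript and less of it per cell cannot be told apart.

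HSPA5 (chr9:125234853-125241382, like the other gene positions from GENCODE on hg38) encodes BiP, the Hsp70 chaperone of the ER that also holds the stress sensors inactive. It was at 1697, 1674 and 1636 CPM in the DMSO libraries and at 486, 659 and 653 CPM with Fucotrim I, a mean of 35.9% of DMSO. Its log2FC of -1.47 ± 0.12 (SE, adjusted p = 0.000101, edgeR's quasi-likelihood test) was the 21st lowest of all genes tested. The first Fucotrim I library stood below the other 2, and HSPA5 had the widest interval of the 10 (95% interval -1.76 to -1.19). Without that library its log2FC was -1.34 (adjusted p = 1.54e-18, edgeR). HSP90B1 (chr12:103930107-103953931) encodes GRP94, the Hsp90 chaperone of the ER. It was at 2932, 2971 and 2785 CPM in DMSO and at 1124, 1322 and 1254 CPM with Fucotrim I, a log2FC of -1.23 ± 0.06 (adjusted p = 1.47e-12, edgeR). The first Fucotrim I library was the lowest for HSP90B1 as it was for HSPA5.

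Partners of BiP fell by different amounts. HYOU1 (chr11:119044188-119057227), the large Hsp70 relative that exchanges nucleotide on BiP, was at 615, 598 and 597 CPM in DMSO and at 254, 269 and 296 CPM with Fucotrim I, a log2FC of -1.14 ± 0.05 (adjusted p = 1.64e-12, edgeR). SDF2L1 (chr22:21642302-21644299) forms complexes with ER DnaJ proteins. It was at 111, 88.5 and 110 CPM in DMSO, where the second library was the lowest, and at 66.9, 61.6 and 69.7 CPM with Fucotrim I, a log2FC of -0.64 ± 0.08 (adjusted p = 4.31e-06, edgeR). DNAJB9 (ERdj4, chr7:108569867-108574850), a J-domain co-chaperone of BiP, was at 28.4, 31.2 and 31.3 CPM in DMSO and at 18.6, 19.4 and 18.2 CPM with Fucotrim I, a log2FC of -0.69 ± 0.08 (adjusted p = 9.99e-07, edgeR). The 95% intervals of SDF2L1 (-0.80 to -0.48) and DNAJB9 (-0.85 to -0.52) did not reach that of HYOU1 (-1.25 to -1.03).

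CALR (chr19:12938578-12944489) encodes calreticulin, a soluble lectin chaperone that binds monoglucosylated N-glycans. It was at 2266, 2178 and 2173 CPM in DMSO and at 949.6, 1011 and 1040.5 CPM with Fucotrim I, a log2FC of -1.14 ± 0.05 (adjusted p = 7.15e-13, edgeR). PDIA4 (ERp72, chr7:149003062-149028662) is a disulfide isomerase. Its level was 935, 916 and 918 CPM in DMSO and 358, 426 and 431 CPM with Fucotrim I, a log2FC of -1.19 ± 0.06 (adjusted p = 5.65e-12, edgeR). MANF (chr3:51385291-51389397), a small ER protein that binds BiP and is secreted under stress, was at 329.9, 319.7 and 319.3 CPM in DMSO and at 149, 155 and 163 CPM with Fucotrim I, a log2FC of -1.05 ± 0.05 (adjusted p = 2.01e-12, edgeR). HERPUD1 (chr16:56932142-56944864), an ER membrane protein that assembles the degradation machinery, was at 211, 214 and 208 CPM in DMSO and at 81.8, 101 and 98.6 CPM with Fucotrim I, a log2FC of -1.17 ± 0.06 (adjusted p = 2.38e-11, edgeR). These 4 genes were each between 43.9% and 48.1% of their DMSO means, with no overlap between groups.

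XBP1 (chr22:28794555-28800597) changed least. Its libraries were at 256, 248 and 236 CPM in DMSO and at 194, 218 and 209 CPM with Fucotrim I, a mean of 83.8% of DMSO and a log2FC of -0.25 ± 0.05 (adjusted p = 0.000647, edgeR). The groups did not overlap, but XBP1 was the 2562nd lowest of the genes tested where SDF2L1, the next of the 10, was the 356th. Its 95% interval (-0.36 to -0.14) did not reach the interval of any of the other 9 genes. Counts on the whole gene do not separate spliced from unspliced XBP1 mRNA.

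**Figure D3:**
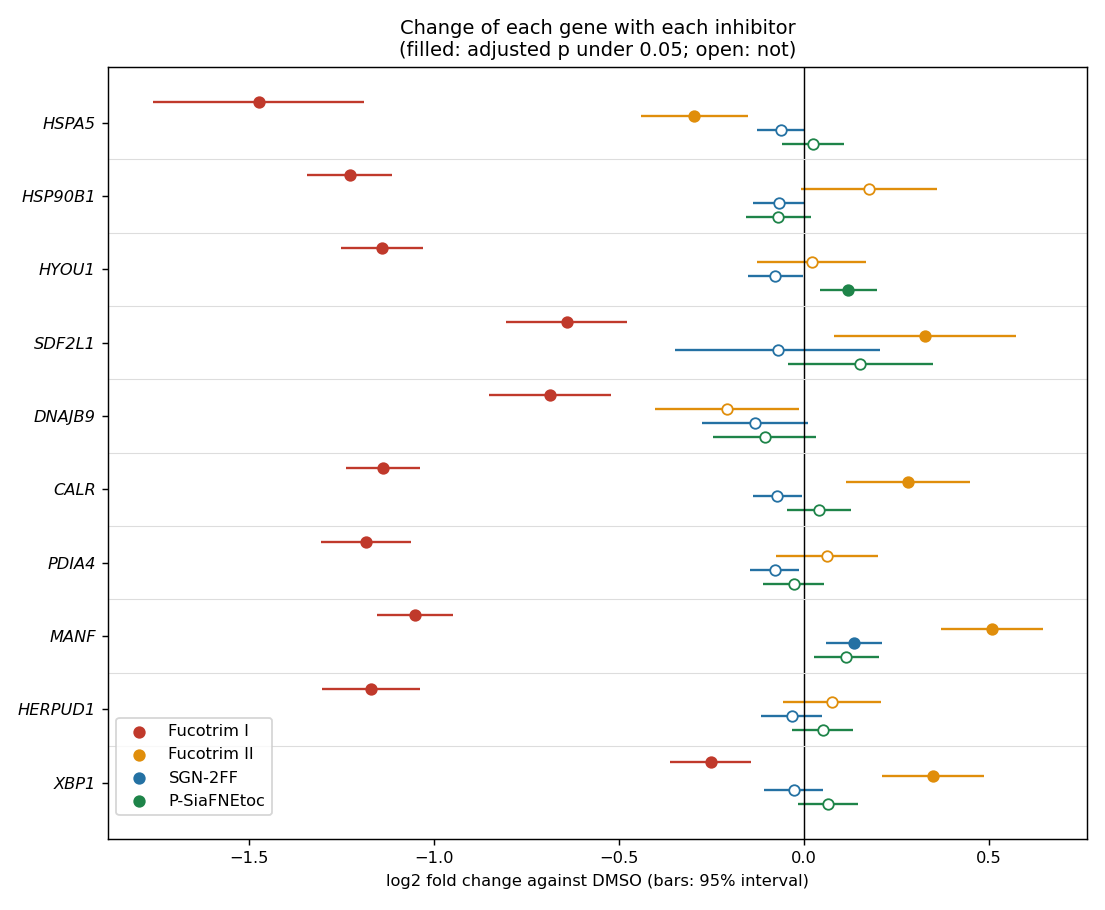
Log2FC against DMSO (x axis) of each of the 10 genes (y axis) with each inhibitor, with 95% intervals as bars; filled points have an adjusted p under 0.05 and open points do not. Every Fucotrim I point is filled and below 0, from -1.47 (HSPA5) to -0.25 (XBP1), while points of the other inhibitors lie between -0.30 and 0.51.

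Mitochondrially encoded genes took 8.67%, 11.9% and 14.2% of counts in the Fucotrim I libraries and 5.98% to 7.03% in DMSO. Without these genes all 10 still fell, with HSPA5 at -1.47 and XBP1 at -0.25. The Fucotrim II libraries had mitochondrial shares of 17.0% and 12.2%, above every DMSO library and overlapping the shares with Fucotrim I. What those shares mean for RNA quality was not tested. The 10 falls with Fucotrim I were called in each of the 14 alternative analyses.

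With Fucotrim II the 10 genes did not move in 1 direction. MANF, XBP1, SDF2L1 and CALR rose and HSPA5 fell, so 4 genes were called higher and 1 lower, beside 25.6% and 25.7% of all 14617 genes tested. The median log2FC of the 10 was 0.13, beside 0.01 over all genes. The 2 libraries were above all DMSO libraries for 7 genes and below them for 2 (33.8% of all genes in each direction).

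MANF rose most, with 443 and 480 CPM with Fucotrim II and a log2FC of 0.51 ± 0.06 (adjusted p = 0.000159, edgeR). XBP1 was at 313 and 319 CPM, a log2FC of 0.35 ± 0.06 (adjusted p = 0.00122, edgeR). Both transcripts were therefore higher with Fucotrim II and lower with Fucotrim I than in DMSO. HSPA5 fell to 1351 and 1379 CPM, a log2FC of -0.30 ± 0.06 (adjusted p = 0.00423, edgeR, against 2.41e-05 to 0.111 over all alternatives). The 2 Fucotrim II libraries are numbered 1 and 2 in their titles but 2 and 3 in their library names. With the replicate number as a block the call was lost by the title numbers (-0.31, adjusted p = 0.111, edgeR) and kept by the library names (-0.28, adjusted p = 0.0230).

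CALR was at 2548 and 2840 CPM, a log2FC of 0.28 ± 0.08 (adjusted p = 0.0109, edgeR). SDF2L1 was at 118 and 142 CPM, a log2FC of 0.33 ± 0.11 (adjusted p = 0.0309, edgeR). These 2 calls were lost in some analyses with 1 library fewer. CALR was not called without DMSO library 1, 2 or 3, with log2FC values of 0.30, 0.27 and 0.26 (adjusted p = 0.0660, 0.0929 and 0.104, edgeR, against 3.59e-06 to 0.207 over all alternatives). SDF2L1 was not called without DMSO library 2 or 3, with log2FC values of 0.22 and 0.37 (adjusted p = 0.120 and 0.0605, edgeR). Without Fucotrim II library 1 or 2 its log2FC was 0.45 or 0.18, each resting on 1 treated library. The remaining 5 genes were not called. HSP90B1, at 3488 and 3084 CPM, had a log2FC of 0.18 (95% interval -0.01 to 0.36, adjusted p = 0.0986, edgeR). It was called higher in the fit of all 14 libraries (adjusted p = 0.0201, edgeR). Without Fucotrim II library 2 its log2FC was 0.26, resting on 1 treated library. DNAJB9, at 27.4 and 25.3 CPM, had a log2FC of -0.21 (-0.40 to -0.01, adjusted p = 0.0716, edgeR). It was called lower in the fit of all 14 libraries (adjusted p = 0.0406, edgeR) and with the library names as a block (0.0271). Without Fucotrim II library 1 its log2FC was -0.27, resting on 1 treated library. HYOU1, HERPUD1 and PDIA4 had log2FC values of 0.02 (-0.13 to 0.17), 0.08 (-0.06 to 0.21) and 0.06 (-0.08 to 0.20).

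With SGN-2FF 1 of the 10 genes was called. MANF was higher, at 361, 359 and 335 CPM with a log2FC of 0.14 ± 0.04 (adjusted p = 0.0101, edgeR), and 0 genes were called lower, beside 11.5% higher and 9.08% lower of all 14312 genes. At an unadjusted p under 0.05, 3 genes were lower, beside 15.5% of all genes. DESeq2 called 1 lower (6.54% of all genes) and limma-voom 0 (8.57%). The MANF call was lost without DMSO library 3 or SGN-2FF library 1 or 2 (adjusted p = 0.0680, 0.0647 and 0.0918, edgeR, against 0.00214 to 0.149 over all alternatives). The other 9 log2FC values were between -0.13 (DNAJB9) and -0.03 (XBP1). HSPA5, at 1583, 1602 and 1573 CPM, had a 95% interval of -0.13 to 0.00, so a fall of the size seen with Fucotrim I lies outside it. The libraries were below all DMSO libraries for HSPA5, CALR, HYOU1 and PDIA4 (19.5% of all genes) and above them for MANF (16.9%).

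With P-SiaFNEtoc, HYOU1 was called higher, at 642, 646 and 676 CPM with a log2FC of 0.12 ± 0.04 (adjusted p = 0.0281, edgeR). 0 genes were called lower, beside 9.02% higher and 7.33% lower of all 14259 genes. There were also 0 lower at an unadjusted p under 0.05 (14.8% of all genes), by DESeq2 (4.51%) and by limma-voom (6.89%). HYOU1 was not called without DMSO library 2 or 3 or P-SiaFNEtoc library 2 (adjusted p = 0.0702, 0.118 and 0.0842, edgeR, against 0.0111 to 0.220 over all alternatives). MANF, at 335, 335 and 378 CPM, had a log2FC of 0.12 (95% interval 0.03 to 0.20) and an adjusted p of 0.0644 by edgeR. Both genes were above every DMSO library, as 16.6% of all genes were. The other 8 log2FC values were between -0.11 (DNAJB9) and 0.15 (SDF2L1), and HSPA5 was at 0.02 (-0.06 to 0.11).

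The inhibitors were also compared with each other directly, in 6 fits over all genes, each adjusted over its own genes and each at the doses given, which differ. With 30 μM Fucotrim I all 10 genes were lower than with 60 μM Fucotrim II, where 6.04% of all genes were called lower. The log2FC values ran from -1.57 ± 0.08 (MANF, adjusted p = 6.11e-07, edgeR) to -0.49 ± 0.11 (DNAJB9, adjusted p = 0.0129, edgeR), and XBP1 was at -0.61 ± 0.08. The DNAJB9 call was lost without Fucotrim I library 2 or 3 (adjusted p = 0.0518 and 0.0809, edgeR) and in the fit with the replicate number from the titles as a block (0.226, the highest over its alternatives). All 10 were also lower than with 100 μM SGN-2FF (12.1% of all genes) and than with 2 μM P-SiaFNEtoc (17.1%). HSPA5 differed by -1.40 ± 0.12 and -1.50 ± 0.12 there and XBP1 by -0.22 ± 0.05 and -0.32 ± 0.05.

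With Fucotrim II, HSPA5 was lower and HSP90B1, CALR, MANF, XBP1 and SDF2L1 were higher than with SGN-2FF (19.1% and 20% of all genes), with XBP1 at 0.39 ± 0.06 (adjusted p = 0.000762, edgeR). Against P-SiaFNEtoc, HSPA5 was lower and HSP90B1, CALR, MANF and XBP1 were higher with Fucotrim II (21.6% and 22.1%), with MANF at 0.40 ± 0.08 (adjusted p = 0.00197, edgeR). HSPA5 and HSP90B1 were not called against SGN-2FF without any 1 SGN-2FF library (adjusted p = 0.118 to 0.156, edgeR). HSP90B1 and CALR were not called against P-SiaFNEtoc without any 1 of its libraries (0.0870 to 0.199, edgeR). Their calls against P-SiaFNEtoc also did not hold in every fit that left 1 Fucotrim II library. With the replicate number from the titles as a block, HSPA5, HSP90B1 and CALR were not called against SGN-2FF (adjusted p = 0.318, 0.290 and 0.119, edgeR) or against P-SiaFNEtoc (0.0643, 0.145 and 0.103). HYOU1 and SDF2L1 were lower with SGN-2FF than with P-SiaFNEtoc, by -0.20 ± 0.04 (adjusted p = 0.000342, edgeR) and -0.22 ± 0.06 (adjusted p = 0.00559, edgeR), where 5.96% of all genes were called lower. SDF2L1 was not called in the fit of all 14 libraries (adjusted p = 0.195, edgeR).

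Other genes of the same pathway were taken from fixed lists, and their counts stand beside the shares of all genes called lower and higher, which were 22.1% and 21.6% with Fucotrim I, 25.7% and 25.6% with Fucotrim II, 9.08% and 11.5% with SGN-2FF and 7.33% and 9.02% with P-SiaFNEtoc. Of 26 further ER chaperones and folding enzymes, 13 fell and 3 rose with Fucotrim I (median log2FC -0.22, beside -1.14 for the 10 genes). The largest fall was in DNAJB11 (ERdj3), a co-chaperone of BiP, from 142 ± 5.78 to 73.0 ± 11.8 CPM (log2FC -0.96, adjusted p = 5.95e-06, edgeR), and the largest rise in the prolyl isomerase FKBP11 (0.56). Of these 26 genes 3 fell and 12 rose with Fucotrim II (median 0.30), with UGGT1, the glycoprotein folding sensor, at -0.28 and FKBP11 at 1.03. With SGN-2FF 2 fell and 1 rose (DNAJC10 -0.15, FKBP11 0.35), and with P-SiaFNEtoc 0 fell and 1 rose (FKBP2, 0.23), counts that do not exceed the shares of all genes called.

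Of 19 tested genes of ER-associated degradation, 12 fell and 3 rose with Fucotrim I (median -0.22). SEL1L, the scaffold of the HRD1 ubiquitin ligase, fell from 182 ± 6.03 to 108 ± 7.39 CPM (log2FC -0.75, adjusted p = 2.69e-09, edgeR), and AUP1 rose by 0.37. With Fucotrim II 3 fell and 5 rose, near or below the shares of all genes called, among them VCP (-0.43), the ATPase that extracts substrates, and AUP1 (0.70). With SGN-2FF 2 fell and 2 rose (SEL1L -0.16, EDEM3 0.17), again near those shares, and with P-SiaFNEtoc 3 rose, SYVN1, which encodes HRD1, most (0.19).

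Of the transcripts of the 3 sensors, 1 was called, and with Fucotrim I only. ERN1 was low, at 6.72 ± 0.586 CPM in DMSO and 5.68 ± 0.432 CPM with Fucotrim I, and was not called with any of the 4 inhibitors (adjusted p = 0.168 with Fucotrim I, edgeR). ATF6 was at 53.2 ± 4.43 and 52.1 ± 2.99 CPM (log2FC -0.02, adjusted p = 0.800, edgeR) and was not called with any inhibitor either. Its relative ATF6B was at 0 CPM in every group, so its change could not be measured. EIF2AK3 was called with Fucotrim I, from 19.7 ± 0.797 to 16.5 ± 1.31 CPM (log2FC -0.25, adjusted p = 0.0293, edgeR). In the list of 7 tested sensors and activating proteases, 5 fell with Fucotrim I, beside 22.1% of all genes, and 1 fell with each of the other inhibitors, near or below the shares of all genes called lower (25.7%, 9.08% and 7.33%). The largest falls were in CREB3L2 with Fucotrim I (-0.70), in the protease gene MBTPS2 with Fucotrim II (-0.41), and in MBTPS1 with SGN-2FF (-0.19) and P-SiaFNEtoc (-0.15).

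The ATF4 branch lies downstream of PERK and of amino acid shortage. Of its 14 genes 12 fell and 0 rose with Fucotrim I (median -0.55), 6 fell and 1 rose with Fucotrim II, 10 fell and 0 rose with SGN-2FF, and 5 fell and 2 rose with P-SiaFNEtoc. CHAC1, a glutathione-degrading enzyme, fell most with each inhibitor, from 14.2 ± 0.981 CPM in DMSO to 2.89 ± 0.656, 5.15 ± 0.312, 7.46 ± 0.640 and 7.43 ± 0.614 CPM in the same order. PPP1R15A, which directs the phosphatase of eIF2alpha, rose with Fucotrim II (0.32) and P-SiaFNEtoc (0.34). The shares of all genes called lower were 9.08% with SGN-2FF and 7.33% with P-SiaFNEtoc. No test compared this list with the 10 genes.

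Relatives of the 10 genes, most of them in the cytosol or mitochondria, were looked at in the same way. Of 12 tested, 7 fell and 1 rose with Fucotrim I (median -0.20), 8 fell and 1 rose with Fucotrim II (median -0.27), 2 fell and 1 rose with SGN-2FF, and 6 fell and 0 rose with P-SiaFNEtoc. Of all genes, 22.1%, 25.7%, 9.08% and 7.33% were called lower in the same order, and the counts with SGN-2FF are near that background. DNAJB1, a cytosolic J-domain protein, fell with Fucotrim I (-0.49) and P-SiaFNEtoc (-0.44), and HSPH1, the cytosolic counterpart of HYOU1, with Fucotrim II (-0.57). DNAJB6 fell with SGN-2FF (-0.16). HSPA1A, also on this list, was at 0 CPM in DMSO and with both Fucotrims, and at most 0.0594 CPM in any library. Its change could not be measured, and why HSPA1A and ATF6B had so few counts was not tested. PDIA2, an isomerase of the ER, was the 1 gene that rose, by 1.11 with Fucotrim II, 0.56 with Fucotrim I and 0.34 with SGN-2FF.

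**Figure D4:**
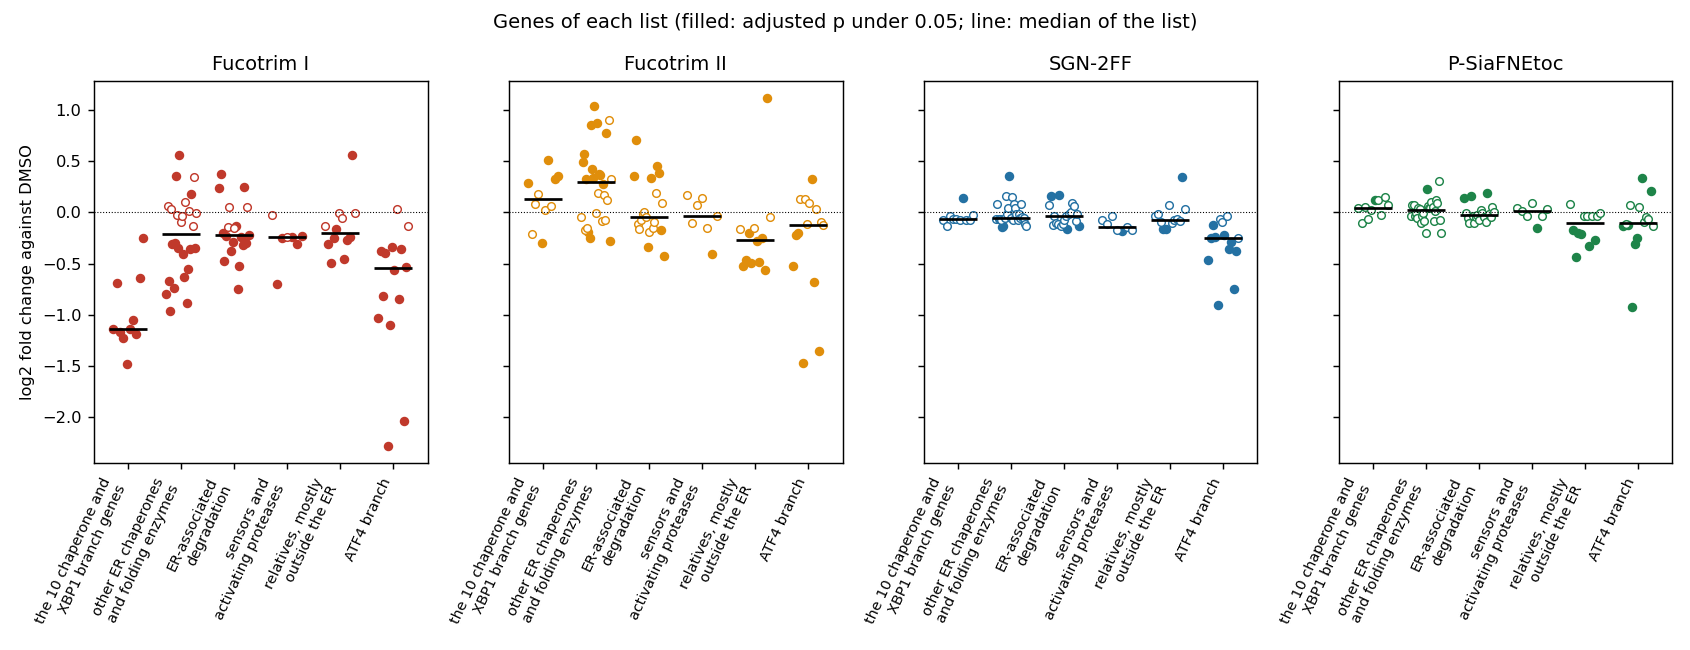
Log2FC against DMSO (y axis) of every tested gene in 6 lists (x axis) for each inhibitor; filled points have an adjusted p under 0.05 and black lines are list medians. With Fucotrim I the 10 genes have a median of -1.14, the lowest of the 6 lists, and with Fucotrim II the further ER chaperones have a median of 0.30.

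Across the 14 libraries the 10 genes varied together, with the correlation of each gene with the mean of the other 9 highest for CALR (Pearson r = 0.996) and lowest for XBP1 (r = 0.793) on the log2 CPM scale. These values are descriptions, since the libraries share their treatments and the 3 Fucotrim I libraries lie apart. Of 9818 genes with at least 10 CPM, those most like the mean of the 10 were HSP90B2P (r = 0.987), TMED10, CANX, COPA, PDIA3P1, PDIA3, PDIA6 and ERBB3 (r = 0.960). CANX encodes calnexin, the membrane counterpart of calreticulin, and PDIA3 its partner isomerase. TMED10 and COPA encode parts of the coated vesicles between ER and Golgi. XBP1 was most like CRELD1 (r = 0.959), SLC6A9, ALG5 and CRELD2 (r = 0.949). CRELD2, an ER protein, was at 354 CPM in DMSO, 222 with Fucotrim I and 526 with Fucotrim II. It was chosen for its likeness to XBP1, so standing on either side of DMSO as XBP1 did is no separate observation.

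HSP90B2P and PDIA3P1 are pseudogene copies of HSP90B1 and PDIA3. Their counts stood at a near constant ratio to the parent gene in all 14 libraries, 1.64% to 1.81% of HSP90B1 and 7.41% to 8.40% of PDIA3. The longest identical stretch was 91 bases for HSP90B1 and HSP90B2P and 238 bases for PDIA3 and PDIA3P1, and reads were 100 bases long. How reads were divided between parent and copy was not tested, so the values of the copies are uncertain. Among the 10 genes, HSPA5 shared 1.19% and HSP90B1 0.21% of its windows of 100 bases with another annotated transcript, and the other 8 shared none. Exons of a gene on the opposite strand covered 9.77% of HYOU1, 9.64% of CALR and 6.95% of HSP90B1. The strand setting of the counting is not given in the sources used here.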

How the data were processed

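Per the study's methods, the authors prepared stranded mRNA libraries, sequenced them as single reads of 100 bases, trimmed them with Cutadapt, aligned the reads to hg38 by HISAT2 and counted them by featureCounts. The deposited values are raw counts per gene, 1 table for each of the 4 inhibitors with the same DMSO libraries in each. The annotation release, strand setting and treatment of reads with several matches are not given in the sources used here. The SGN-2FF table was joined by NCBI gene number.

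Low genes were removed by filterByExpr at a count of 10 and a total of 15. After TMM scaling, edgeR 4.0.16 (R 4.3.3) gave robust quasi-likelihood tests of each pair of groups, with Benjamini-Hochberg adjustment over all genes tested. The code was first tested on simulated data. DESeq2 1.42.0, limma-voom (limma 3.58.1), 2 other filters, other size factors, no mitochondrial genes, a stricter threshold, a fit of all 14 libraries, the replicate number as a block, and leaving out each library were alternatives. The 10 genes and the lists were chosen with earlier results of these data known. From each list and inhibitor, the called genes with the largest fall and rise and a mean of at least 50 counts were named, with the 3 sensors, the 8 genes most like the mean of the 10 and the 4 most like XBP1. Intervals and p-values cover the spread between these libraries. Levels per kilobase depend on the transcript chosen.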

Additional observations from a re-analysis of the deposited data

How the results depend on the processing

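With Fucotrim I against DMSO the count of 10 genes lower and 0 higher held in all alternatives, and each gene kept its direction and call in 14 of them. For Fucotrim II (1 lower, 4 higher), 2 were lower in the fit of all 14 libraries and 2 were higher at an adjusted p under 0.01. Over all genes, 3763 were lower and 3748 higher of 14617. The fit of all 14 libraries had 4176 lower of 14877, and the stricter threshold had 2611 higher of 14617. Leaving out 1 library gave 1 to 2 lower and 2 to 4 higher. For SGN-2FF (0 lower, 1 higher), DESeq2 gave 1 lower, 0 were higher at an adjusted p under 0.01 and in the fit of all 14 libraries, and leaving out 1 library gave 0 to 1 lower and 0 to 1 higher. Over all genes, 1299 were lower and 1647 higher of 14312. DESeq2 had 841 lower of 12850, the stricter threshold 996 higher of 14312 and the fit of all 14 libraries 934 higher of 14877. Leaving out 1 library gave 642 to 1414 lower and 1000 to 1695 higher over all genes. For P-SiaFNEtoc (0 lower, 1 higher), 3 were higher with no filter, 0 at an adjusted p under 0.01, 0 in the fit of all 14 libraries, and 0 to 2 without 1 library. Over all genes, 1286 of 14259 were higher. In the same order the alternatives had 1368 of 20488, 750 of 14259, 672 of 14877, and 885 to 1179 higher. Between inhibitors, leaving out 1 library gave 0 to 1 lower for Fucotrim II against SGN-2FF, and 1 to 2 lower and 2 to 4 higher against P-SiaFNEtoc, while SGN-2FF against P-SiaFNEtoc (2 lower) had 4 with DESeq2 and 1 in the fit of all 14 libraries. Against DMSO, signs changed for genes not called in the analysis of all libraries, HYOU1 with Fucotrim II without its library 2 (log2 fold change -0.065, and up to 0.096 without 1 library), SDF2L1 with SGN-2FF without its library 3 (0.0050, and down to -0.17 without DMSO library 2, where it was called lower, adjusted p = 0.0274, edgeR) and HSPA5 with P-SiaFNEtoc without its library 3 (-0.0066, and up to 0.043). For SGN-2FF against P-SiaFNEtoc, 850 of all 14261 genes were lower. DESeq2 had 545 lower of 11510 there and the fit of all 14 libraries 279 of 14877. In this comparison the sign changed without 1 library for HSP90B1 (-0.013 to 0.014), MANF (-0.012 to 0.075) and DNAJB9 (-0.082 to 0.0082), none of them called. The cause of these changes was not tested. Where 1 library was left in an arm, it was assumed to vary like the other group.

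The replicate numbers did not pair the samples consistently across the groups. For Fucotrim I, correlations of same-numbered deviations from the group means were 0.33, 0.41 and 0.07, and each library was nearest to its own number. The correlations were -0.42 and -0.53 for Fucotrim II by the numbers in the titles, and mixed in sign for the other inhibitors. The Fucotrim II libraries have 1 and 2 in their titles but 2 and 3 in their names. With the replicate block by title, 0 genes were lower with Fucotrim II against DMSO, since HSPA5 (-0.31, adjusted p = 0.111, edgeR) was not called, nor was CALR higher (0.27, adjusted p = 0.207). For Fucotrim I against Fucotrim II (10 lower), 9 were lower with the block, DNAJB9 not being called (-0.47, adjusted p = 0.226), and leaving out 1 library gave 9 to 10. Also with the block, 2 were higher with P-SiaFNEtoc, 0 were lower and 3 higher for Fucotrim II against SGN-2FF, and 0 lower and 2 higher against P-SiaFNEtoc. Numbering the replicate block by library name instead gave 2 lower (HSPA5 and DNAJB9) and 4 higher with Fucotrim II against DMSO, CALR among them (0.30, adjusted p = 0.0267, edgeR).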

Other observations

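Of the 8 luminal markers, 7 rose with Fucotrim I, Fucotrim II and SGN-2FF each and 5 with P-SiaFNEtoc, and 0 fell (edgeR, adjusted p under 0.05), where 21.6%, 25.6%, 11.5% and 9.02% of all genes were called higher. KLK3, which encodes prostate-specific antigen, a secreted glycoprotein, rose by 1.15 on the log2 scale with Fucotrim I, 0.59 with Fucotrim II, 1.32 with SGN-2FF and 0.59 with P-SiaFNEtoc. The keratin genes KRT8 (0.75, 0.56, 0.45 and 0.40 in the same order) and KRT18 (0.47, 0.59, 0.16 and 0.19) rose with all 4. KLK2 had the largest rise of these markers with Fucotrim II (0.81) and P-SiaFNEtoc (0.76). Of the markers of other cell types, COL1A1 rose with Fucotrim II (0.59) and CD68 with SGN-2FF (0.46). How the luminal genes relate to the ER genes was not tested.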
